A study of Gallus gallus with 4 samples.

Results

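The 10 neural cell adhesion genes of the immunoglobulin superfamily described here, L1CAM, NFASC, NRCAM, CHL1, CNTN1, CNTN2, CNTN4, NCAM1, NCAM2 and ALCAM, were compared between sorted cell populations of the embryonic chick retina. They were chosen by name, as members of the L1 family, the contactins and the NCAM and ALCAM group, and all 10 were found among the 18293 genes of the deposited tables, with 48 of 35665 named transcripts. The choice of these genes, and of the lists of partners and relatives below, was made with earlier results of these data known. Explants of embryonic day 5 chick retina had been electroporated with a ThrbCRM1-GFP and a UbiqC-Tdt plasmid, cultured for about 20 h and sorted by fluorescence. Libraries are grouped here by their population label. By that label, the 2 ThrbCRM1 libraries (A and B) came from the population that the ThrbCRM1 reporter marks. The 2 UbiqC libraries (A and B) came from cells carrying the UbiqC reporter. The labels name 2 sorted gates, GFP+/TDT+ and TDT+, but do not state in words which library came from which gate. The labels give the same electroporation with both plasmids and the same culture protocol for both groups. ThrbCRM1 is an enhancer of the thyroid hormone receptor gene THRB, known in chick to be active in progenitors whose daughters become cones and horizontal cells, so a sort on its reporter can hold such progenitors and their young daughters. The labels call all 4 libraries retinal progenitor cells and do not say whether A and B were separate cultures. The p-values below therefore refer to the spread among these libraries only, and that spread may be technical.

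Immunoglobulin superfamily adhesion molecules hold neurons and their processes together. Members of the L1 family cross the membrane, bind each other or contactins on the outside, and attach to the membrane skeleton through ankyrins on the inside. Contactins are tied to the outer membrane by a lipid anchor and signal through partners such as L1 proteins and receptor phosphatases, while NCAM1 carries long polysialic acid chains in the embryo that loosen contact between cells. In the retina several of these molecules are known from the growth and bundling of ganglion cell axons.

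The kallisto estimated counts summed to 30959178 and 16087500 in ThrbCRM1 A and B, and to 15673010 and 31659766 in UbiqC A and B. Levels are given as TPM, kallisto's abundance scaled for transcript length and for the size of the library. The sorted reporter was plain in the tables, since the EGFP sequence was listed at 9805 and 15147 TPM in ThrbCRM1 and at 150 and 156 TPM in UbiqC. TdTomato, the other reporter, was listed at 3547 and 14505 TPM in ThrbCRM1 and at 2124 and 5637 TPM in UbiqC, so it was higher in B than in A in both groups and overlapped between them. THRB had 309 and 419 TPM in ThrbCRM1 libraries and 6.81 and 7.94 TPM in UbiqC libraries. Summed over 10 retinal progenitor markers, the level lay between 1628 and 1802 TPM in ThrbCRM1 and between 2377 and 2618 TPM in UbiqC. Over 9 photoreceptor markers it lay between 4608 and 5444 TPM in ThrbCRM1 and between 119 and 128 TPM in UbiqC. Over 9 horizontal and amacrine cell markers it lay between 448 and 543 TPM in ThrbCRM1 and between 139 and 169 TPM in UbiqC. Of these 9 genes, 7 were higher in ThrbCRM1 in the test described below, while PROX1 and FOXN4 were lower. Over 13 ganglion cell markers the level lay between 1040 and 1235 TPM in ThrbCRM1 and between 565 and 660 TPM in UbiqC. In the ganglion cell list the axonal genes NEFL, NEFM and STMN2 were higher in ThrbCRM1, while ISL1, RBPMS, RBPMS2 and EBF3 were lower, and 6 of 13 did not pass the test. In that test 19.9% of all tested genes were higher and 20.9% lower. Markers of tissues outside the neural retina were low where they were found. The tables held 2 of 10 listed genes for blood and immune cells (PTPRC and TAL1, and no globin gene). They held 3 of 7 for Schwann cells and oligodendrocytes and 4 of 8 for lens. Low sums over so few genes do not show that such cells were rare. The 9 endothelial and mesenchymal genes summed to between 16.2 and 18.5 TPM in ThrbCRM1 and between 67.6 and 91.1 TPM in UbiqC, where most of it was KDR, and the 3 Schwann cell and oligodendrocyte genes to between 3.55 and 4.14 TPM in ThrbCRM1 and between 5.86 and 7.41 TPM in UbiqC. The 7 pigment epithelium genes summed to between 17.9 and 18.4 TPM in ThrbCRM1 and between 19.6 and 21.2 TPM in UbiqC, and the 2 blood and immune genes to between 4.53 and 4.85 TPM in ThrbCRM1 and between 2.51 and 3.38 TPM in UbiqC. The lens genes summed to between 38.1 and 54.1 TPM in ThrbCRM1 and between 15.3 and 18.0 TPM in UbiqC. None of these markers was at 0 in all 4 libraries, and the part of other cell types in the results below was not tested.

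Of the 10 adhesion genes, 4 rose in ThrbCRM1 (NFASC, L1CAM, CNTN1 and CNTN4), 4 fell (NRCAM, CHL1, CNTN2 and ALCAM), and NCAM1 and NCAM2 did not pass the test. The test was edgeR's quasi-likelihood test with Benjamini-Hochberg adjustment over 16772 genes and a threshold of 0.05, and 40.8% of all genes tested passed it, 19.9% higher and 20.9% lower in ThrbCRM1. In all 10 genes the ThrbCRM1 libraries lay wholly above or below the UbiqC libraries, which 72.0% of all tested genes did too. The median log2 fold change of the 10 was 0.08, against -0.01 over all tested genes, and the median size of the change regardless of sign was 1.19, against 0.39 over all tested genes. The family therefore had no common direction. Because the genes were chosen with earlier results of these data known, their share called and their median size of change are descriptions only. In bulk RNA of sorted cells, fewer cells of a type and less RNA per cell cannot be told apart. In the authors' deposited table, a q below 0.05 was listed for 8 of the 10 genes, where 39.9% of its genes did, and the exceptions were NCAM1 (q = 0.126) and NCAM2 (q = 0.186).

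**Figure D1:**
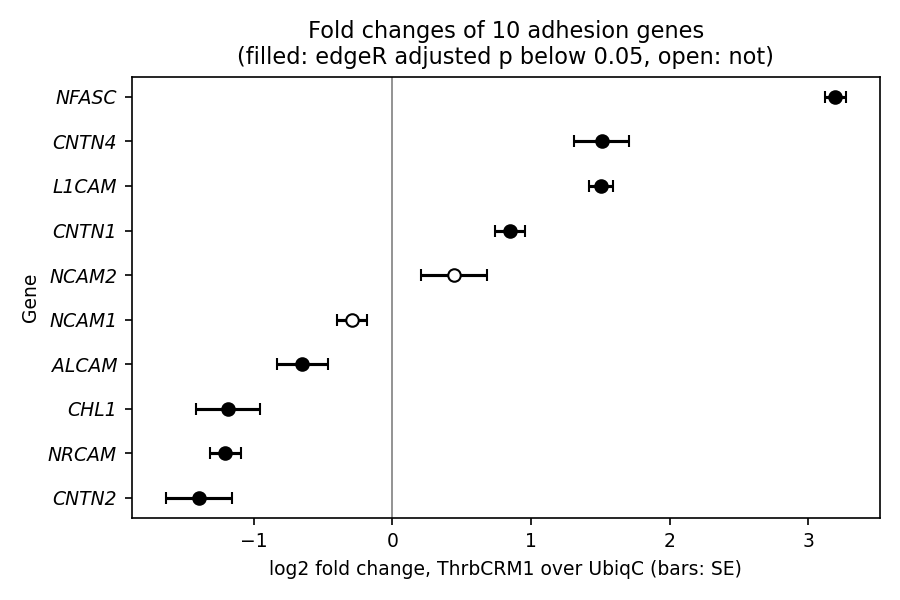
Log2 fold change of each adhesion gene, ThrbCRM1 over UbiqC, on the horizontal axis, with the standard error as a bar, filled where edgeR's adjusted p was below 0.05. NFASC stands far to the right at 3.19, 3 genes lie between 0.85 and 1.51, and CNTN2, NRCAM and CHL1 lie close together between -1.40 and -1.19.

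In the L1 family NFASC and L1CAM rose while NRCAM and CHL1 fell. NFASC, neurofascin, is an L1 protein known from the axon initial segment and the node of Ranvier, where it lies together with ankyrin and ion channels. It had 138 and 142 TPM in ThrbCRM1 A and B, against 14.9 and 14.5 TPM in UbiqC A and B. Replicates differed by a few TPM and the groups were far apart. The log2 fold change was 3.19 ± 0.08 (SE, n = 2 each; 9.15-fold; edgeR adjusted p = 1.37e-05), larger in size than that of 97.8% of tested genes. L1CAM, the founding member, known in chick as NgCAM and as a promoter of axon growth, had 31.9 and 30.4 TPM in ThrbCRM1 libraries, against 10.8 and 10.3 TPM in UbiqC libraries. It was thus also higher in both ThrbCRM1 libraries, by 1.504 ± 0.09 on the log2 scale (SE, n = 2 each; 2.84-fold; edgeR adjusted p = 7.27e-05).

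NRCAM, first described in chick as Bravo and known from axon guidance, went the other way within the same family. It had 16.4 and 14.8 TPM in ThrbCRM1 libraries, against 28.1 and 37.7 TPM in UbiqC libraries. Both UbiqC libraries were higher, and they also differed more from each other. The log2 fold change was -1.20 ± 0.11 (SE, n = 2 each; 2.30-fold lower; edgeR adjusted p = 0.000462). CHL1, the close homologue of L1, had 3.70 and 4.24 TPM in ThrbCRM1 libraries, against 6.25 and 11.2 TPM in UbiqC libraries. The groups did not overlap, but UbiqC B was well above UbiqC A. The log2 fold change of CHL1 was -1.19 ± 0.23 (SE, n = 2 each; edgeR adjusted p = 0.00860), fell in size to -0.77 (adjusted p = 0.00528) without UbiqC B, and missed the threshold without ThrbCRM1 A (adjusted p = 0.103).

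With these opposite changes the L1 family differed in both sum and make-up. The 4 genes together had 190 and 192 TPM in ThrbCRM1 libraries, against 60.1 and 73.7 TPM in UbiqC libraries. NFASC made up 72.6% and 74.2% of that sum in ThrbCRM1 and 24.8% and 19.7% in UbiqC. NRCAM made up 8.65% and 7.73% in ThrbCRM1 and 46.8% and 51.1% in UbiqC, so that the leading L1 family transcript was NFASC in the ThrbCRM1 libraries and NRCAM in the UbiqC libraries. L1CAM kept a share between 15.9% and 16.8% in ThrbCRM1 and between 13.9% and 18.0% in UbiqC.

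**Figure D2:**
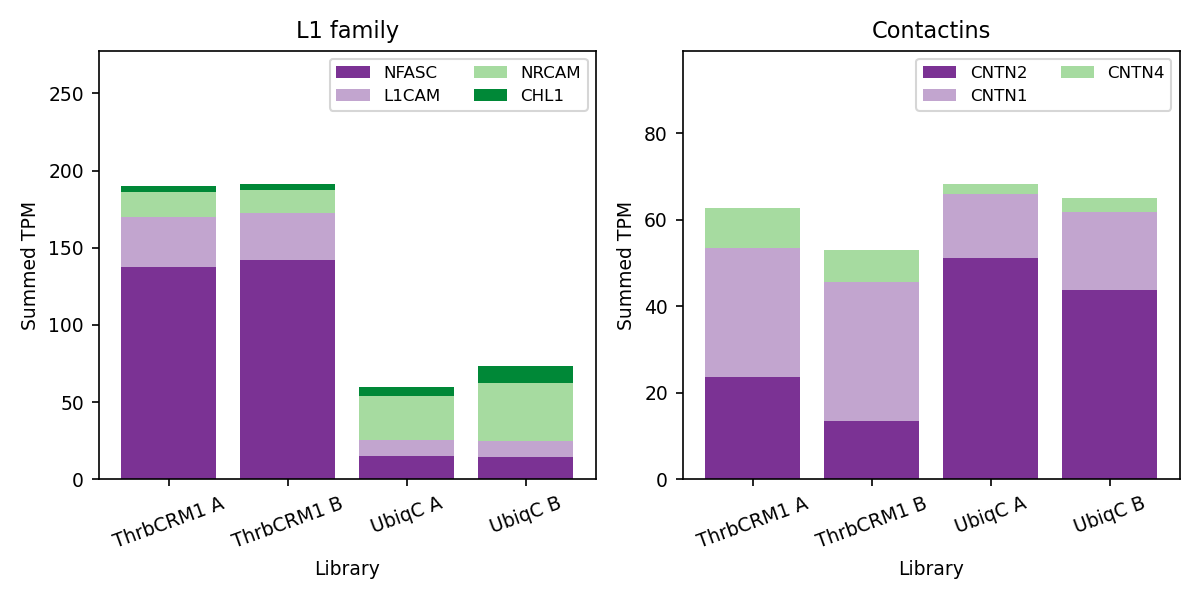
TPM of the L1 family genes (left) and of the 3 contactins (right), stacked for each library. The L1 family sum is 190 and 192 TPM in ThrbCRM1, mostly NFASC, against 60.1 and 73.7 TPM in UbiqC, while the contactin sum stays between 53.0 and 68.3 TPM and changes in make-up.

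The contactins also moved apart, with CNTN1 and CNTN4 higher and CNTN2 lower in ThrbCRM1. CNTN1, contactin 1, is an axonal protein that binds receptor phosphatases, NRCAM and tenascins. It had 29.6 and 32.1 TPM in ThrbCRM1 libraries, against 14.7 and 17.9 TPM in UbiqC libraries. Both ThrbCRM1 libraries were higher, by 0.85 ± 0.11 on the log2 scale (SE, n = 2 each; 1.80-fold; edgeR adjusted p = 0.00163). CNTN4, which in mouse takes part in the wiring of retinal ganglion cells with their brain targets, had 9.43 and 7.43 TPM in ThrbCRM1 libraries, against 2.33 and 3.29 TPM in UbiqC libraries. The groups were separate, and the log2 fold change was 1.51 ± 0.20 (SE, n = 2 each; 2.84-fold; edgeR adjusted p = 0.00170).

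CNTN2, known in chick as axonin-1 and as a partner of L1CAM and NRCAM on growing axons, had 23.7 and 13.5 TPM in ThrbCRM1 A and B, against 51.2 and 43.9 TPM in UbiqC A and B. Both UbiqC libraries were above both ThrbCRM1 libraries, and ThrbCRM1 A had 1.76 times the level of ThrbCRM1 B. The log2 fold change was -1.40 ± 0.24 (SE, n = 2 each; 2.63-fold lower; edgeR adjusted p = 0.00505), the lowest of the 10 genes. Of the 13 ganglion cell markers, 7 had the same order of libraries as CNTN2 and 6 had another. Of the 13, 3 were called higher (NEFL, NEFM and STMN2) and 4 lower in ThrbCRM1. Over all tested genes 19.9% were called higher and 20.9% lower. Among those with the same order were RBPMS2 at 9.23 and 5.69 TPM in ThrbCRM1 and 22.1 and 19.7 TPM in UbiqC, EBF3 at 6.46 and 4.01 TPM in ThrbCRM1 and 15.9 and 12.9 TPM in UbiqC, and ISL1 at 4.35 and 1.79 TPM in ThrbCRM1 and 12.3 and 10.4 TPM in UbiqC. The others with the same order, in ThrbCRM1 A and B, were POU4F3 (59.4 and 30.6 TPM), THY1 (1.70 and 0.535 TPM), RBPMS (18.5 and 18.1 TPM) and POU4F1 (1.14 and 1.08 TPM). In RBPMS and POU4F1 the ThrbCRM1 libraries were thus nearly equal. Among the markers with another order, NEFL had 273 and 235 TPM in ThrbCRM1 and 102 and 79.8 TPM in UbiqC. NEFM had 151 and 137 TPM in ThrbCRM1 and 63.4 and 58.0 TPM in UbiqC, and STMN2 557 and 504 TPM in ThrbCRM1 and 159 and 144 TPM in UbiqC. How many of all tested genes have the library order of CNTN2 was not counted. The part of ganglion cells in the CNTN2 result was not tested. The 3 contactins together had 62.8 and 53.0 TPM in ThrbCRM1 libraries, against 68.3 and 65.0 TPM in UbiqC libraries, so the sum differed far less than the make-up. CNTN2 held 37.8% and 25.5% of it in ThrbCRM1 and 75.0% and 67.4% in UbiqC, CNTN1 held 47.1% and 60.5% in ThrbCRM1 and 21.6% and 27.5% in UbiqC, and CNTN4 held 15.03% and 14.0% in ThrbCRM1 and 3.42% and 5.05% in UbiqC.

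NCAM1, the neural cell adhesion molecule, was by far the most abundant of the 10 genes in every library and differed little at the gene level. It had 476 and 523 TPM in ThrbCRM1 libraries, against 524 and 651 TPM in UbiqC libraries. The highest ThrbCRM1 library lay just below the lowest UbiqC library. The log2 fold change of -0.29 ± 0.11 (SE, n = 2 each) missed the threshold (edgeR adjusted p = 0.0762), and passed it without UbiqC A, at -0.42 (adjusted p = 0.0210). The log2 fold change of NCAM1 was nearer 0 without UbiqC B (-0.14, adjusted p = 0.255) and without ThrbCRM1 A (-0.20, adjusted p = 0.361). NCAM2, a relative known from the olfactory system, was the least abundant, with 0.871 and 1.08 TPM in ThrbCRM1 libraries and 0.618 and 0.741 TPM in UbiqC libraries. These values rest on 124 and 80 estimated counts in ThrbCRM1 and 48 and 112 in UbiqC, and the log2 fold change of 0.44 ± 0.24 did not pass the test (SE, n = 2 each; edgeR adjusted p = 0.185). ALCAM, known in chick as DM-GRASP or BEN and present on young retinal ganglion cell axons, had 6.70 and 5.21 TPM in ThrbCRM1 libraries, against 7.72 and 10.2 TPM in UbiqC libraries. The groups were separate by about 1 TPM, with a log2 fold change of -0.65 ± 0.18 (SE, n = 2 each; edgeR adjusted p = 0.0333). The ALCAM call was lost without ThrbCRM1 A (adjusted p = 0.0794), ThrbCRM1 B (0.151) or UbiqC B (0.137).

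**Figure D3:**
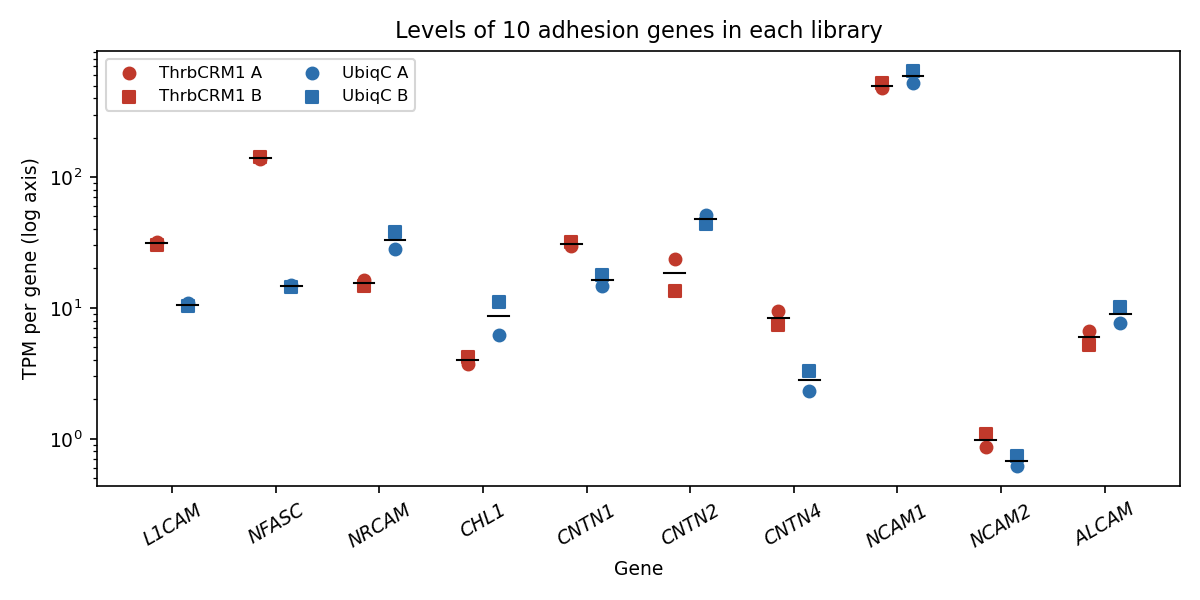
TPM of each adhesion gene on a log axis, with 1 point per library (circles for A, squares for B) and a short line at each group mean, ThrbCRM1 left of UbiqC. NCAM1 lies between 476 and 651 TPM in all 4 libraries, NFASC shows the widest gap between groups, and NCAM2 lies at about 1 TPM or below.

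The order of the levels per length, in TPM, differed between the populations. In ThrbCRM1, NCAM1 was followed by NFASC, then by L1CAM and CNTN1, whose libraries overlapped, by CNTN2 and NRCAM, which also overlapped, and then by CNTN4, ALCAM, CHL1 and NCAM2 without overlap between neighbours. In UbiqC, NCAM1 was followed by CNTN2 and NRCAM, then by CNTN1 and NFASC, which overlapped. Next by mean came L1CAM, then ALCAM and CHL1, which overlapped, and then CNTN4 and NCAM2. CHL1, at 6.25 to 11.2 TPM, also overlapped L1CAM, at 10.3 to 10.8 TPM. NFASC thus stood next to NCAM1 in ThrbCRM1 and beside CNTN1 in UbiqC. The 10 genes summed to 736 and 774 TPM in ThrbCRM1 and to 661 and 800 TPM in UbiqC. NCAM1 made up 64.7% and 67.6% of that in ThrbCRM1 and 79.3% and 81.3% in UbiqC. Without NCAM1 the sum was 260 and 251 TPM in ThrbCRM1 and 137 and 150 TPM in UbiqC, with no overlap. Most of this gap lay in NFASC, with 138 and 142 TPM in ThrbCRM1 and 14.9 and 14.5 TPM in UbiqC. The sum therefore does not show a common rise of the remaining genes.

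Although the NCAM1 gene level differed little, its transcripts did not hold the same shares in both populations. The table lists 12 NCAM1 transcripts, of which XM_015298043.1, of 6187 bases, and XM_015298044.1, of 6184 bases, together held 90.8% and 90.9% of the gene's TPM in ThrbCRM1 and 92.8% and 93.8% in UbiqC. The longer one had 215 and 239 TPM in ThrbCRM1 libraries, against 432 and 547 TPM in UbiqC libraries. The shorter one had 217 and 236 TPM in ThrbCRM1 libraries, against 54.8 and 63.4 TPM in UbiqC libraries. So the pair was nearly equal in both ThrbCRM1 libraries, while the longer form was dominant in both UbiqC libraries. The shorter one held 45.6% and 45.1% of NCAM1 TPM in ThrbCRM1 and 10.5% and 9.74% in UbiqC, and the longer one 45.2% and 45.8% in ThrbCRM1 and 82.4% and 84.0% in UbiqC. The ratio of the shorter to the longer form was 1.01 and 0.986 in ThrbCRM1 and 0.127 and 0.116 in UbiqC. Replicates of a group differed by under 2 percentage points in each of these shares.

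NCAM1 was the only one of the 5 adhesion genes with several transcripts whose transcript usage passed edgeR's diffSpliceDGE test with Benjamini-Hochberg adjustment (adjusted p = 0.0274), which 5.54% of 7056 genes tested for usage did. The shorter transcript rose by 2.17 on the log2 scale relative to the change of the whole gene, that transcript included (edgeR adjusted p = 0.0183). Of all transcripts in this test, 0.723% passed it. The share of the longer form fell by 37.7 percentage points, the largest share change of any NCAM1 transcript. In 94.3% of the genes tested for usage, the largest share change of any tested transcript was smaller. Among the 67 such genes with a mean TPM at least that of NCAM1, NCAM1 itself was the only one with a change this large, and their median was 1.27 points, against 7.37 points over all. Leaving out any 1 library ended the call, with adjusted p between 0.121 and 0.213, while the relative log2 change stayed between 2.11 and 2.22.

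Other pairs of NCAM1 transcripts that differ by 3 bases were also in the table, at low levels. In the pair of 3495 and 3492 bases, which had 1.29 and 1.89 TPM in ThrbCRM1 and 1.40 and 1.37 TPM in UbiqC, the shorter form held 49.1% and 49.1% in ThrbCRM1 and 0.795% and 0.788% in UbiqC. The pair of 7000 and 6997 bases had 0.952 and 0.275 TPM in ThrbCRM1, but only 0.00302 and 4.78e-05 TPM in UbiqC. Its shorter form held 50.6% and 50.4% in ThrbCRM1. The shares of 12.9% and 11.7% in UbiqC rest on levels near 0. In the pair of 7015 and 7012 bases the shorter form was near 0 in both A libraries, and held 35.1% in ThrbCRM1 B and 5.61% in UbiqC B. The share of the shorter form was thus higher in ThrbCRM1 for both letters in 3 of the 4 pairs, the leading one included, and for the letter B in the last one. For the pair of 7000 and 6997 bases this comparison has almost no UbiqC signal behind it. These pairs are not independent, because kallisto divides the same reads among all transcripts of a gene. An equal division is also what such an estimate gives where reads do not tell transcripts apart, and the deposited tables hold no reads, so whether this bears on the near-equal ThrbCRM1 shares was not tested. The difference in length does not say where in the transcript the 3 bases lie.

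**Figure D4:**
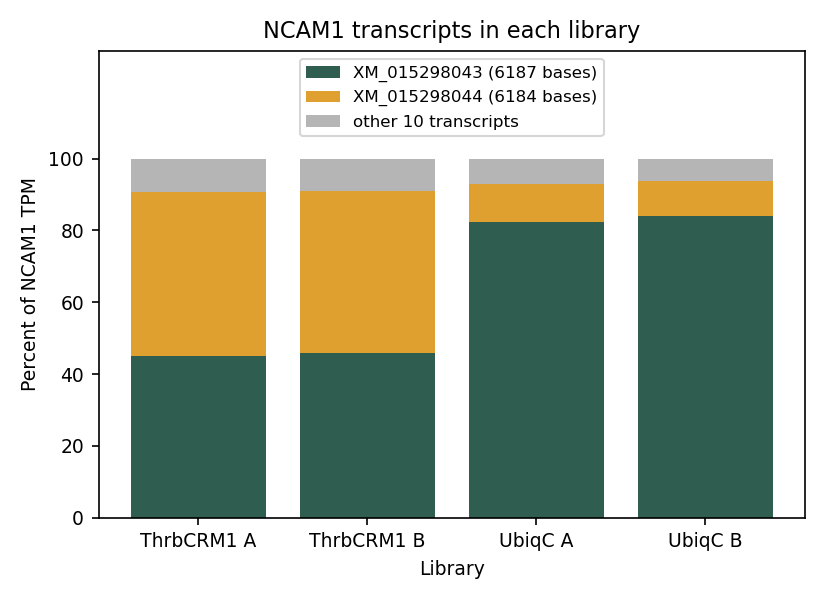
Share of NCAM1 TPM held by its 2 leading transcripts and by the other 10, in percent, for each library. The shorter leading transcript takes 45.6% and 45.1% in ThrbCRM1 and 10.5% and 9.74% in UbiqC, where the longer one takes 82.4% and 84.0%.

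Of the 48 adhesion gene transcripts, 43 passed the filter on low counts, 6 of these were higher in ThrbCRM1, 2 were lower, and 35 did not pass the test. Of all 32759 transcripts tested, 6.01% passed edgeR's quasi-likelihood test with Benjamini-Hochberg adjustment, 3.08% higher and 2.93% lower. The higher ones were the L1CAM transcript, 4 NFASC transcripts and the shorter NCAM1 form (log2 fold change 1.85 ± 0.10, adjusted p = 0.0169). The lower ones were the longer NCAM1 form (-1.19 ± 0.14, adjusted p = 0.0420) and the NRCAM transcript XM_015280741.1 (-2.12 ± 0.21, adjusted p = 0.0340). Leaving out any 1 library left 0 of these calls in edgeR, with between 19 and 26 transcripts at an unadjusted p below 0.05, while DESeq2 on all libraries called 24.

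Of the 9 NFASC transcripts, the 4 most abundant were called higher, and 3 of them held at least 10% of the gene's TPM. NM_001160324.2 had 44.8 and 54.4 TPM in ThrbCRM1 libraries, against 2.72 and 4.56 TPM in UbiqC libraries, with a log2 fold change of 3.67 ± 0.31 (edgeR adjusted p = 0.0291). XM_015298918.1 had 50.8 and 45.7 TPM in ThrbCRM1 libraries, against 5.57 and 4.02 TPM in UbiqC libraries, a log2 fold change of 3.25 ± 0.22 (edgeR adjusted p = 0.0223). XM_015298919.1 had 28.1 and 27.9 TPM in ThrbCRM1 libraries, against 4.50 and 4.32 TPM in UbiqC libraries, a log2 fold change of 2.58 ± 0.08 (edgeR adjusted p = 0.0159). All 3 were higher in both ThrbCRM1 libraries, by unequal amounts. The share of XM_015298919.1 in NFASC was 20.4% and 19.6% in ThrbCRM1 and 30.3% and 29.7% in UbiqC, but usage of the gene did not pass the test (adjusted p = 0.265). It did pass without UbiqC A (0.0247) or UbiqC B (0.00154).

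In the remaining genes with several transcripts the division among them was not steady between replicates. Usage did not pass the test in NRCAM (adjusted p = 0.99998), CHL1 (0.841) or CNTN4 (0.548). The NRCAM transcript XM_015280741.1 had 1.28 and 1.58 TPM in ThrbCRM1 libraries and 5.53 and 6.21 TPM in UbiqC libraries, and XM_015280850.1 had 1.26 and 0.973 TPM in ThrbCRM1 libraries and 4.60 and 3.65 TPM in UbiqC libraries. The leading NRCAM transcript, XM_015280580.1, had 7.30 and 4.65 TPM in ThrbCRM1 libraries and 11.7 and 10.9 TPM in UbiqC libraries. NM_205266.1, the shortest NRCAM form named here, overlapped between groups, with 4.17 and 4.39 TPM in ThrbCRM1 libraries and 3.94 and 8.51 TPM in UbiqC libraries. In CHL1, XM_004944697.2 held 0.230% and 2.60% of the gene's TPM in ThrbCRM1, 52.5% in UbiqC A and 0.0142% in UbiqC B. The CHL1 transcript XM_015293214.1 held 12.0% and 24.6% in ThrbCRM1 and 1.38% and 0.995% in UbiqC. The other named CHL1 transcripts were XM_015293218.1, with 68.6% and 28.9% in ThrbCRM1 and 22.3% and 29.2% in UbiqC, XM_015293220.1, with 16.4% and 32.5% in ThrbCRM1 and 20.7% and 56.4% in UbiqC, and XM_015293222.1, with 0% and 2.96% in ThrbCRM1 and 3.17% and 13.4% in UbiqC. In CNTN4, XM_015293182.1 held 5.74% and 12.9% in ThrbCRM1, 73.8% in UbiqC A and 20.8% in UbiqC B, and XM_414435.5 held the rest. For CHL1 and CNTN4 the gene sums are therefore the steadier values. L1CAM, CNTN1, CNTN2, NCAM2 and ALCAM have a single transcript each in the table.

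The genes whose pattern over the 4 libraries was most like that of NFASC, the gene with the highest fold change, were KCNH4, a potassium channel gene, and the calcium-binding protein genes NECAB1 and CABP1. Likeness was the Euclidean distance over the 4 libraries of log2 CPM, counts scaled to the library total, centred on each gene. It was 0.0502, 0.0757 and 0.0789 for the 3 genes. The search left out the adhesion genes themselves, genes without a symbol and genes with a mean under 10 CPM. KCNH4 had 21.5 and 22.8 TPM in ThrbCRM1 and 2.23 and 2.25 TPM in UbiqC, NECAB1 had 64.1 and 62.5 TPM in ThrbCRM1 and 6.71 and 6.22 TPM in UbiqC, and CABP1 had 28.2 and 27.6 TPM in ThrbCRM1 and 2.51 and 2.72 TPM in UbiqC. For CNTN2, the gene with the lowest fold change, the nearest genes were PDLIM7 (0.0920), GAP43, a growth cone protein gene (0.0967), and RBPMS2, a ganglion cell marker (0.123). GAP43 had 69.5 and 38.1 TPM in ThrbCRM1 and 158 and 133 TPM in UbiqC, and ThrbCRM1 A was above B by 1.83 times, against 1.76 times for CNTN2. Since GAP43 was picked for its likeness over these same 4 libraries, the similar ratio follows from the choice and is not a separate result.

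Several of the 10 genes are neighbours in the genome. The reference annotation (assembly bGalGal1.mat.broiler.GRCg7b) held a single match, by name or else by transcript, for 9 of the 10. In its order of protein-coding genes, NFASC lies next to CNTN2, NRCAM lies next to CNTN1, and CHL1 and CNTN4 have only CNTN6 between them. In each of these 3 pairs of an L1 family gene and a contactin, both were called and in opposite directions: NFASC rose and CNTN2 fell, CNTN1 rose and NRCAM fell, CNTN4 rose and CHL1 fell. Among all directly adjacent protein-coding genes of which both were called, 747 of 2104 pairs (35.5%) had opposite directions. CHL1 and CNTN4 are not directly adjacent and so are not a pair of that kind. CHL1 lies directly next to CNTN3, which rose. Both CHL1 and CNTN4 lie directly next to CNTN6, which was not called (edgeR adjusted p = 0.227). The pattern was chosen after its values were seen and rests on 3 pairs, so it is given as a description.

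The relatives of the contactins comprised the other contactins and the contactin-associated proteins, which form junctions between axons and glia with contactins and neurofascin. Of 7 tested, 4 rose, 1 fell and 2 were not called, where 40.8% of all tested genes were called, 19.9% higher and 20.9% lower. CNTNAP1 had 5.58 and 6.37 TPM in ThrbCRM1 libraries, against 4.11 and 4.13 TPM in UbiqC libraries (log2 fold change 0.47 ± 0.14, edgeR adjusted p = 0.0419). CNTNAP2 had 1.91 and 1.83 TPM in ThrbCRM1 libraries, against 1.10 and 1.41 TPM in UbiqC libraries (log2 fold change 0.51 ± 0.16, edgeR adjusted p = 0.0450). Both were higher in both ThrbCRM1 libraries by small amounts. Named after their values were seen, CNTN3 and CNTN5 also rose, at log2 fold changes of 0.80 ± 0.21 and 1.01 ± 0.31, and CNTNAP5 fell at -1.84 ± 0.38 with a level under 1 TPM in every library. Without ThrbCRM1 A or without ThrbCRM1 B edgeR called 0 of the 7, with 3 at an unadjusted p below 0.05 each time, and DESeq2 on all libraries also called 0, with 4 below 0.05 unadjusted.

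The ligands and co-receptors were the extracellular partners of these molecules. Of 19 tested, 4 rose, 10 fell and 5 were not called, against 40.8% called over all tested genes (20.9% lower). PTPRZ1, a receptor phosphatase that binds CNTN1 and NRCAM, had 6.02 and 4.91 TPM in ThrbCRM1 libraries, against 55.0 and 61.3 TPM in UbiqC libraries. Its log2 fold change was -3.51 ± 0.10 (edgeR adjusted p = 1.43e-05), against a rise of its partner CNTN1 and a fall of its partner NRCAM. MDK, a growth factor that binds PTPRZ1, had 179 and 168 TPM in ThrbCRM1 libraries, against 473 and 532 TPM in UbiqC libraries, a log2 fold change of -1.58 ± 0.07 (edgeR adjusted p = 3.34e-05). Both genes were thus far lower in both ThrbCRM1 libraries. Of the others, named after their values were seen, the midkine relative PTN fell (-0.97 ± 0.12), as did the L1 and NCAM co-receptor FGFR1 (-1.002 ± 0.08), the integrin gene ITGB1 (-1.09 ± 0.08), the matrix genes TNC (-1.25 ± 0.19), NCAN (-0.62 ± 0.14) and AGRN (-0.30 ± 0.09), and the semaphorin receptor genes NRP2 (-1.60 ± 0.16) and PLXNA1 (-0.57 ± 0.08). In the opposite direction, TNR, a tenascin that binds CNTN1 and neurofascin, rose (2.42 ± 0.16), with 3.66 and 3.74 TPM in ThrbCRM1 libraries and 0.631 and 0.698 TPM in UbiqC libraries. PTPRG, a receptor phosphatase that binds several contactins, rose too (1.08 ± 0.06), with 72.8 and 72.4 TPM in ThrbCRM1 libraries and 32.02 and 33.1 TPM in UbiqC libraries, and so did PRNP (1.04 ± 0.16) and the L1CAM co-receptor NRP1 (0.73 ± 0.20). The receptor phosphatase genes of the list therefore did not share a direction, and the paralogues NRP1 and NRP2 changed in opposite directions, as did the tenascins TNR and TNC.

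The cytoplasmic partners link the adhesion molecules to the membrane skeleton and to signalling. Of 16 tested, 3 rose, 7 fell and 6 were not called, beside 40.8% called over all tested genes (20.9% lower). ANK2, ankyrin B, had 33.1 and 35.1 TPM in ThrbCRM1 libraries, against 12.2 and 12.1 TPM in UbiqC libraries (log2 fold change 1.44 ± 0.08, edgeR adjusted p = 5.87e-05). MSN, moesin, a linker of membrane proteins to actin, had 52.7 and 49.4 TPM in ThrbCRM1 libraries, against 113 and 126 TPM in UbiqC libraries (log2 fold change -1.29 ± 0.07, edgeR adjusted p = 6.23e-05). ANK2 was higher and MSN lower in both ThrbCRM1 libraries. Among genes named after their values were seen, ANK3, the ankyrin G gene whose product anchors neurofascin at the axon initial segment, fell while NFASC rose. It had 13.5 and 12.7 TPM in ThrbCRM1 libraries, against 18.6 and 22.5 TPM in UbiqC libraries (log2 fold change -0.66 ± 0.10, edgeR adjusted p = 0.00283). The doublecortin gene DCX, which binds neurofascin, fell as well (-0.92 ± 0.11), as did GAP43 (-1.47 ± 0.25) and PAK1 (-1.86 ± 0.10), while SDCBP, the syntenin gene, rose (1.23 ± 0.10).

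The last list held enzymes that make polysialic acid, the sugar carried by NCAM1, and proteases that shed L1 family molecules. Of 8 tested, 4 rose, 0 fell in edgeR's test, with 1 gene (NANS) lower at an unadjusted p below 0.05 (0.0441), and 4 did not pass. The 50% called is near the 40.8% called over all tested genes, of which 19.9% were higher. ST8SIA2, a polysialyltransferase that acts on NCAM1 in the embryo, had 94.1 and 95.1 TPM in ThrbCRM1 libraries, against 42.1 and 45.5 TPM in UbiqC libraries. Both ThrbCRM1 libraries were about equal and higher, with a log2 fold change of 1.05 ± 0.07 (edgeR adjusted p = 0.000101). The other polysialyltransferase, ST8SIA4, had 9.64 and 9.82 TPM in ThrbCRM1 libraries and 3.62 and 6.68 TPM in UbiqC libraries and missed the threshold (edgeR adjusted p = 0.0755). ST8SIA3, a sialyltransferase of the same family named after its values were seen, had 29.3 and 27.1 TPM in ThrbCRM1 libraries, against 1.89 and 1.61 TPM in UbiqC libraries, a log2 fold change of 3.97 ± 0.20. ADAM10, a shedding protease of L1CAM, had 94.1 and 101.5 TPM in ThrbCRM1 libraries, against 63.7 and 72.5 TPM in UbiqC libraries (log2 fold change 0.46 ± 0.09, edgeR adjusted p = 0.00697), and missed the threshold without ThrbCRM1 B (adjusted p = 0.0534). BACE1, which cleaves CHL1 in mouse, rose by 0.40 ± 0.08 and was named after its values were seen.

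**Figure D5:**
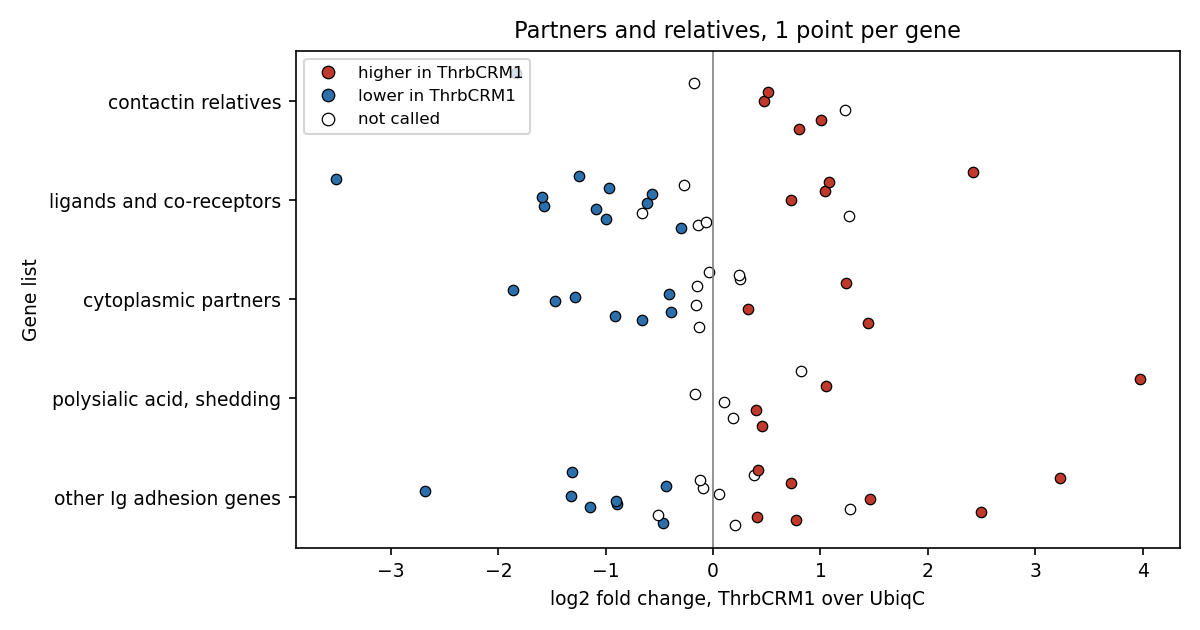
Log2 fold change, ThrbCRM1 over UbiqC, of each tested gene in the lists of partners and relatives, 1 point per gene, coloured by the call of edgeR's test at an adjusted p of 0.05. Ligands and co-receptors lie mostly on the lower side (10 of 19 lower, 4 higher), and in the polysialic acid and shedding list all 4 called genes lie on the higher side.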

How the data were processed

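PolyA RNA of 4 libraries was quantified by the authors, who used kallisto, sleuth and the galGal5 build, per the submitters' processing notes, and tool versions are not given in the sources used here. As deposited, the files give estimated counts (expected counts) and TPM per transcript, and transcript lengths. The comparison deposited by the authors lists p-values, q-values and natural log effects, whose sign is negative for genes higher in ThrbCRM1. The transcript sheet deposited by the authors holds a signal equal to TPM times 1 factor per library (0.967 to 1.035), and was used to pair transcripts with gene names. Its 3 further per-library columns could not be mapped to a library and were not used.

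Estimated counts were summed by gene, rounded and tested with edgeR 4.0.16 in R 4.3.3 (TMM, filterByExpr with a minimum count of 10, quasi-likelihood F test, Benjamini-Hochberg adjustment, threshold 0.05), which left 16772 genes and 2 residual degrees of freedom. The common biological coefficient of variation was 10.6%. Fold changes are ThrbCRM1 over UbiqC on the log2 scale. Each SE given is the size of the log2 fold change divided by the square root of edgeR's F. It rests on a variance moderated across genes, so it is not the spread of the 2 libraries of a group. Transcripts were tested in the same way, and transcript usage with diffSpliceDGE. The reporter sequences were removed before testing by gene. A spreadsheet had turned 21 symbols into dates, and 20 were recovered from the reference annotation. Replicates differed beyond counting error, with a chi-square of 8.14 (ThrbCRM1) and 9.66 (UbiqC) per degree of freedom. The members and lists were chosen with earlier results of these data known. The genes named are the 10 members, the 2 genes of each partner list with the smallest p among those with a mean of at least 10 CPM, the 3 genes nearest in pattern to the members with the highest and lowest fold change, and transcripts with at least 10% of a member's TPM in some library, and others are marked where they appear. Listed genes without a match in the tables are not analysed here. Alternatives were the replicate letter as a block, DESeq2 1.42.0 and its size factors, other filters, length offsets, limma 3.58.1 on log2 TPM with pseudocounts of 1 and 0.1, limma diffSplice, and each library left out.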

Additional observations from a re-analysis of the deposited data

How the results depend on the processing

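With 2 libraries a group, calls depend on single libraries. NFASC, L1CAM, CNTN1, CNTN4, CNTN2 and NRCAM kept direction and call in all 14 settings tried, which gave between 6 and 9 called members, always 4 of them higher. ALCAM was called in 8 of 14 settings, CHL1 in 12 and NCAM1 in 3 (with the block, with DESeq2 and without UbiqC A), and NCAM2 in none of its 11 (lowest adjusted p = 0.120). Transcript shares are estimates that split reads, and their error is not in the tests.

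Leaving out each library in turn gave between 3843 (without ThrbCRM1 A) and 6191 genes changed, between 1887 and 3137 higher and between 1956 and 3054 lower, against 6839, 3333 and 3506 with all 4. Of the members between 2 and 5 were lower. Calls numbered between 0 and 2 of the contactin relatives, between 2 and 6 of the polysialic acid and shedding list, 0 of the member transcripts, and 0 or 1 of the usage genes (with at least 1 usage gene at an unadjusted p below 0.05 each time, and with NFASC in place of NCAM1 where 1 was called). The contactin relatives, with 5 calls, had 0 with DESeq2 or limma on log2(TPM + 0.1) (where 2 were below 0.05 unadjusted), 1 with limma on log2(TPM + 1), 2 with the latter unfiltered, where also 2 members were lower, and 3 with at least 5 CPM in 2 libraries. DESeq2 called 24 member transcripts. The replicate letters do not establish pairs, since the A minus B differences of the 2 groups correlated over genes at 0.167 with only 2 pairs. With the letter as a replicate block 8375 genes and 9 members were called (NCAM1 at adjusted p = 0.00361), 7 polysialic acid and shedding genes and 0 member transcripts, with 20 below 0.05 unadjusted. NCAM1 usage kept its call (adjusted p = 0.0291).

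Reversed values were all transcript changes without a call, and are given with their range over the left-out libraries. Relative usage on the log2 scale was 0.75 for CHL1 XM_004944697.2 with limma diffSplice. It ranged between -1.44 (without ThrbCRM1 B) and 0.29 (without UbiqC B) for CHL1 XM_015293220.1, between -0.12 (without UbiqC B; -0.02 without ThrbCRM1 A) and 0.31 for NFASC XM_015298918.1, and between -0.046 (without ThrbCRM1 A) and 0.41 for NRCAM XM_015280580.1. The transcript log2 fold change ranged between -1.02 and 0.33 (without UbiqC B; 0.045 without ThrbCRM1 B) for CHL1 XM_015293218.1, between -1.28 and 0.057 (without UbiqC A) for CNTN4 XM_015293182.1, and between -1.07 and 0.020 (without UbiqC B) for NRCAM NM_205266.1. The cause was not tested.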

Other observations

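Other adhesion genes of the immunoglobulin superfamily were also split in direction. Of 22 tested, 7 rose in ThrbCRM1, 8 fell and 7 did not pass edgeR's test, and 40.8% of all genes passed it. NTM, neurotrimin, a lipid-anchored molecule of the IgLON group, had 88.4 and 106 TPM in ThrbCRM1 libraries, against 9.18 and 8.86 TPM in UbiqC libraries, and its log2 fold change of 3.23 ± 0.14 (edgeR adjusted p = 2.27e-05) was close to that of NFASC. MDGA1, a lipid-anchored molecule that binds neuroligins, had 1.20 and 1.29 TPM in ThrbCRM1 libraries, against 6.86 and 8.76 TPM in UbiqC libraries, with a log2 fold change of -2.68 ± 0.15 (edgeR adjusted p = 5.72e-05). Both genes separated the groups without overlap.

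Named after their values were seen, some other close relatives also changed in opposite directions, while others did not. How often relatives differ in direction over all genes was not counted. In the IgLON group LSAMP fell (-1.32 ± 0.13) and NEGR1 fell (-0.44 ± 0.10) while NTM rose. OPCML of the same group was not called (edgeR adjusted p = 0.135), nor was MDGA2, a relative of MDGA1 (edgeR adjusted p = 0.668). Of the sidekick genes, which in chick mark layers of the inner retina, SDK1 fell (-1.32 ± 0.11) and SDK2 rose (0.42 ± 0.11). CADM1 fell (-0.47 ± 0.08), while CADM2 (0.77 ± 0.10) and CADM3 (0.41 ± 0.11) rose. DSCAML1 rose (2.50 ± 0.21), with 2.26 and 2.04 TPM in ThrbCRM1 libraries and 0.344 and 0.380 TPM in UbiqC libraries, while DSCAM, at 0.850 and 0.701 TPM in ThrbCRM1 libraries and 0.803 and 1.31 TPM in UbiqC libraries, missed the threshold (edgeR adjusted p = 0.214). KIRREL3 (1.46 ± 0.09) and NEO1 (0.72 ± 0.08) rose, and JAM2 (-0.90 ± 0.14), JAM3 (-0.90 ± 0.08) and IGSF3 (-1.15 ± 0.10) fell.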
